A study of Mus musculus with 9 samples.

Results

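The 39 genes described here encode the enzymes of fatty acid β-oxidation, the acyl-CoA thioesterases and the proteins that build and supply the peroxisome. They were given as a list of symbols, and each matched a single row of the 54532 genes in the deposited tables. By the place of their products, 14 are mitochondrial, 22 peroxisomal (8 enzymes, 2 transporters and 12 peroxins), 2 (Eci2 and Amacr) are found in both organelles and 1 (Acot1) is cytosolic. The cells were 3T3-L1, a mouse preadipocyte line, and RNA-seq was made from poly A RNA of 9 libraries, 3 in each of 3 groups. The labels give 3 days at confluence for every group. Undifferentiated cells served as the control. Differentiated cells were then placed in a differentiation medium with 1 µM dexamethasone, 0.5 mM 3-isobutyl-1-methylxanthine, 1 µM rosiglitazone and 10 µg/mL insulin. Lysfree cells received the same medium without added lysine, so the serum of that medium could still supply some. Both media therefore held rosiglitazone, an agonist of PPARγ. The study's methods name DMEM with BCS for maintenance and a different DMEM, with FBS, for the differentiation medium. Effects of serum, base medium and the added drugs cannot be told apart in comparisons with Undifferentiated cells. The libraries came from 1 cell line, and no source used here says whether replicates were separate cultures, so the p-values measure the spread between these libraries, which may be technical.

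β-oxidation shortens a fatty acyl-CoA by one acetyl-CoA per turn through a dehydrogenation, a hydration, a second dehydrogenation and a thiolytic cleavage. Mitochondria carry medium-chain and long-chain fatty acids through to the end and pass electrons through electron transfer flavoprotein to ubiquinone, whereas peroxisomes begin on very long and branched chains with oxidases that hand electrons to oxygen. Peroxisomes import their matrix proteins folded, by receptors that read a signal at the C-terminus or near the N-terminus, and peroxins carry out this import, the insertion of membrane proteins and the division of the organelle. White adipocytes store fat, and both organelles are known to expand when preadipocytes become adipocytes.

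Total counts ranged from 15880144 to 21806693 per library, and 3 counts, used as the floor, equalled 0.138 to 0.189 CPM. The groups carried their labels: the FPKM (fragments per kilobase of gene, scaled to library size) of 13 adipocyte markers summed to 398 to 526 in Undifferentiated, 7200 to 7520 in Differentiated and 266 to 345 in Lysfree libraries, with Lep at 0 in the last. The sum of 10 preadipocyte and fibroblast markers was 4300 to 4580, 1240 to 1250 and 2010 to 2120. Col1a1 and Col3a1 had the largest Undifferentiated means, 1890 and 1370 FPKM, against 362 and 345 in Differentiated and 327 and 485 in Lysfree cells. By the test below, 8 of the 10 were called lower with differentiation and 0 higher. In Lysfree cells 5 were called lower and 1 (Ly6a, 4.28-fold) higher than in Undifferentiated, and 5 higher and 0 lower than in Differentiated cells. All 13 adipocyte markers were lower in Lysfree than in Differentiated by the test below, and 6 of the 13 were called lower in Lysfree than in Undifferentiated, the other 7 not being called. The part of these markers in the results on Lysfree cells was not tested. Fewer adipocytes and less RNA per adipocyte cannot be told apart in bulk RNA. The 8 brown adipocyte markers summed to 3.94 to 6.03 FPKM in Undifferentiated, 13.1 to 15.6 in Differentiated and 5.49 to 7.56 in Lysfree libraries. Ucp1 was at 0 throughout. With differentiation 3 of the list were called higher, among them Cox7a1 (mean 9.67 FPKM in Differentiated), and 1 lower. In Lysfree compared with Undifferentiated cells Ppargc1a was called higher and Cox8b lower. Sums of the 8 macrophage markers were 19.1 to 22.6, 9.14 to 10.6 and 12.3 to 14.2 in the same order. Adgre1 and Itgam were at 0 throughout. Compared with Undifferentiated cells, Lyz2 (mean 13.3 FPKM there) was called lower and Cd68 higher in both media, and Cd14 was not called in either. Endothelial, muscle and epithelial lists stayed at or below 0.63, 4.3 and 2.03 FPKM in sum. Lysfree 1 stood apart from Lysfree 2 and 3 in several members: its FPKM relative to the mean of the other two was 0.273 for Etfb, 0.456 for Pex14, 0.635 for Pex16, 0.688 for Acadm, 1.65 for Pex13 and 2.19 for Abcd2. Results that rest on it are given with and without it.

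Most of the peroxisomal enzyme genes coded for an import signal of the organelle. They were grouped by the place of their products, which this signal helps to set. Its counts by group are therefore a description and no independent support for the grouping. Peroxisomal targeting signal 1, read by the receptor Pex5, is a tripeptide at the very end of a protein, here taken as serine, alanine or cysteine, then lysine, arginine or histidine, then leucine or methionine. In the principal transcripts of GENCODE vM21 such an ending was coded by 6 of the 8 peroxisomal enzyme genes (Acot8, Decr2, Ehhadh, Hsd17b4, Pecr and Scp2). None of the 14 mitochondrial members and none of the 12 peroxins had it, and of 21499 coding genes 112 had it, or 0.521%. The last 30 coding bases of 5 of these genes, 5′ to 3′ on the coding strand of GRCm38, are shown with the codons of the tripeptide in capitals, followed by 2 members that lack this exact ending, with no capitals.
Ehhadh: ttggcaggaccccatagcAGCAAACTGtga
Scp2: cagcttcagccgggcaaaGCTAAGCTGtga
Pecr: gaatcttttaagaagaaaGCCAAGCTCtaa
Acot8: aagcctcaggtgtcagagAGTAAGCTAtag
Decr2: gagtttgaatccttctctGCTAAGCTGtag
Acox3: gtagccgacaggctaaagtcccagctgtag
Amacr: gaaagtgataagctaaaagccaatctctga
Acaa1a, the peroxisomal thiolase, is known to use the other signal, near the N-terminus, which is read by Pex7. Genes whose products carry the same ending did not share one expression pattern: Scp2 had the largest rise of the enzymes, Decr2 and Pecr were not called, and Ehhadh was barely detected, as the values below show.

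In Differentiated compared with Undifferentiated cells, 18 of the 39 members rose, 1 (Acot1) fell and 20 were not called. A gene was called where edgeR's quasi-likelihood test gave a Benjamini-Hochberg adjusted p under 0.05 over all genes tested and the change was at least 2-fold, and "rose" and "fell" are used for called genes alone. Of all 24402 genes tested, 10.4% were called higher and 11.4% lower, 21.8% in all. Among genes with a mean of at least 1 FPKM in one of the groups, which all members but Ehhadh had, 14.8% were called higher. The median log2 fold change was 0.93 over the members and 0.02 over all genes. FPKM did not overlap between the groups for 35 members, against 50.9% of all genes and 79.1% of those with at least 1 FPKM.

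In Lysfree compared with Differentiated cells the picture was reversed in direction: 20 members fell, 1 (Acot1) rose and 18 were not called, against 10.5% of all genes called lower and 8.14% called higher, 18.7% in all (14.6% called lower among genes with at least 1 FPKM). Their median log2 fold change was -1.18, and that of all genes -0.06. The comparison shares its Differentiated libraries with the previous one. In Lysfree compared with Undifferentiated cells 1 member (Abcd2) fell and 38 were not called, where 8.76% of all genes were called lower and 5.52% higher, 14.3% in all (11.3% lower among genes with at least 1 FPKM). In this last comparison edgeR called 0 members higher, as did DESeq2. At an unadjusted p under 0.05, 12 members were higher and 12 lower, against 20.8% and 20.2% of all genes.

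**Figure D1:**
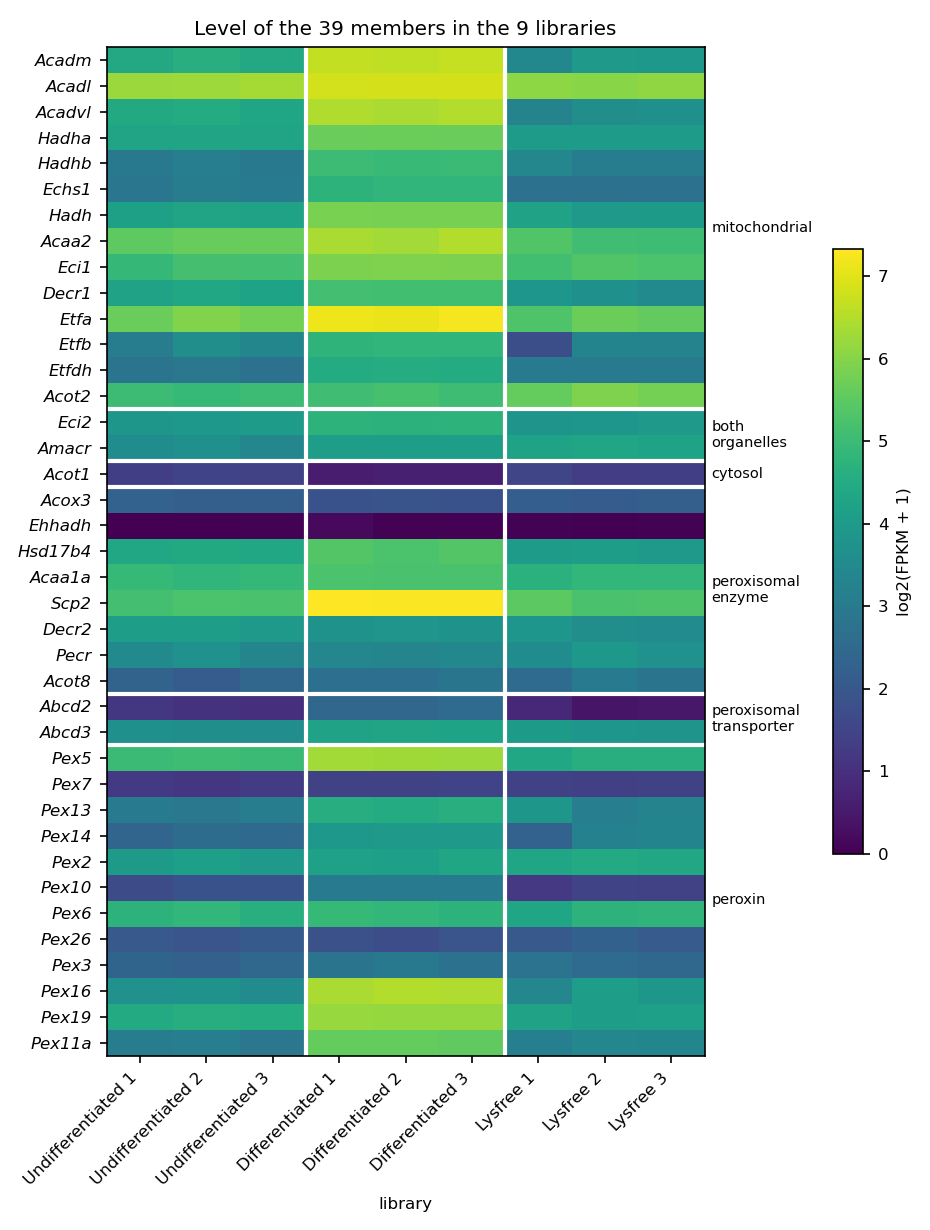
Level of each of the 39 members (rows, grouped by the place of the product) in the 9 libraries (columns), as the colour of log2(FPKM + 1). The Differentiated columns are brighter for most mitochondrial rows and for some peroxins and Scp2, Ehhadh is dark in every library, and Etfb and Pex14 are darker in Lysfree 1 than in Lysfree 2 and 3.

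The 14 mitochondrial members include the acyl-CoA dehydrogenases, which open each turn. Acadm, the medium-chain enzyme (chromosome 3, 153922357 to 153944632, minus strand, mm10), was measured at 20.6, 23.7 and 20.4 FPKM in Undifferentiated 1 to 3, at 100, 98.4 and 103 in Differentiated 1 to 3 and at 9.79, 14.5 and 14.0 in Lysfree 1 to 3. The 3 groups did not overlap, and the Lysfree libraries were the lowest. It rose 4.57-fold with differentiation (log2 fold change 2.19 ± 0.06 SE, n = 3 in each group), and its adjusted p was below the smallest number edgeR could return. It was 7.53-fold lower in Lysfree than in Differentiated cells (-2.91 ± 0.12, adjusted p = 5.6e-14), and -2.77 without Lysfree 1. Acadvl, the very-long-chain enzyme of the inner membrane, followed it with 21.0, 21.9 and 19.0 FPKM, then 86.5, 84.3 and 87.8, then 8.62, 11.4 and 11.9 in the same order. Here too each group was separate from the others, and Lysfree was lowest. Acadvl rose 4.09-fold (2.03 ± 0.06, adjusted p = 3.6e-253) and fell 7.74-fold in Lysfree compared with Differentiated (-2.95 ± 0.12, adjusted p = 1.5e-14). Its exons overlap those of Dvl2 on the opposite strand over 42.9% of their length, so reads there could belong to either gene. Acadl, the long-chain enzyme, had the highest level of the 3 in Undifferentiated cells, 76.6 ± 3.15 FPKM (SD, n = 3), and was not called: it was 1.47-fold higher with differentiation (adjusted p = 3e-23) and 1.65-fold lower in Lysfree than in Differentiated cells (adjusted p = 4e-07).

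The trifunctional protein of the inner membrane carries out the later steps on long chains, with Hadha as its α and Hadhb as its β subunit. Their genes lie head to head on chromosome 5, with starts 86 bases apart. Hadhb was measured at 6.73, 7.77 and 6.82 FPKM in Undifferentiated, at 31.4, 30.1 and 30.8 in Differentiated and at 9.53, 7.64 and 7.39 in Lysfree libraries. Differentiated libraries were far above the rest, and Undifferentiated and Lysfree libraries overlapped. Hadhb rose 4.25-fold (2.09 ± 0.06, adjusted p = 4.7e-251) and fell 3.60-fold in Lysfree compared with Differentiated (-1.85 ± 0.1, adjusted p = 3.6e-12). Hadha, with means of 18.3, 49.8 and 15.4 FPKM, rose 2.67-fold and fell 3.09-fold in the same comparisons. The α subunit was thus listed at a higher level per length than the β subunit in each group.

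In the matrix, Echs1, the short-chain enoyl-CoA hydratase, was measured at 6.29, 7.55 and 6.99 FPKM in Undifferentiated, 25.9, 27.2 and 27.2 in Differentiated and 5.78, 5.7 and 5.84 in Lysfree libraries. Every Lysfree library lay below every Undifferentiated one, though by little. Echs1 rose 3.78-fold (1.92 ± 0.06, adjusted p = 2.2e-226) and fell 4.43-fold in Lysfree compared with Differentiated (-2.15 ± 0.09, adjusted p = 4.5e-14). Hadh, the short-chain hydroxyacyl-CoA dehydrogenase, rose 3.11-fold and fell 3.44-fold. Acaa2, the matrix thiolase, and Decr1, the dienoyl-CoA reductase needed for unsaturated chains, fell by 1.18 and 1.44 on the log2 scale in Lysfree compared with Differentiated, while their differences with differentiation, 1.74-fold and 1.79-fold higher, passed the p threshold (1e-37 and 7.5e-42) but not the fold threshold. Eci1, an isomerase for unsaturated chains, was not called in any comparison.

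Electron transfer flavoprotein and its oxidoreductase take electrons from the acyl-CoA dehydrogenases, and their 3 genes were called in both comparisons with Differentiated cells. Etfa, the α subunit, had the highest level of all mitochondrial members in Differentiated cells, 143 ± 6.01 FPKM, against 54.9 ± 5.22 in Undifferentiated and 45.1 ± 5.79 in Lysfree cells. Etfa rose 2.55-fold and fell 3.02-fold, and Etfdh, the oxidoreductase, rose 3.50-fold and fell 2.93-fold. Etfb, the β subunit, rose 2.83-fold and fell 3.86-fold in Lysfree compared with Differentiated (-1.95 ± 0.26, adjusted p = 3.1e-06), with 2.4 FPKM in Lysfree 1 against 8.87 and 8.68 in Lysfree 2 and 3. Without Lysfree 1 the Etfb change was -1.58 and was still called. Gm45233, on the same strand, overlaps 53.0% of the exonic length of Etfb, so its counts are uncertain.

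Of the mitochondrial members as a whole, 9 rose with differentiation and 11 fell in Lysfree compared with Differentiated cells, with medians of 1.46 (range 0.10 to 2.19) and -1.61 on the log2 scale. Against the trend, though not called, was Acot2, a matrix thioesterase that splits long-chain acyl-CoA into free fatty acid and CoA. Acot2 was at 31.4, 29.3 and 31.6 FPKM in Undifferentiated, at 32.8, 35.7 and 32.4 in Differentiated and at 47.8, 58.8 and 54.3 in Lysfree libraries. The Lysfree libraries were above all others. The level of Acot2 in Lysfree cells was 1.80-fold that in Undifferentiated (0.85 ± 0.11, adjusted p = 4.7e-08) and 1.67-fold that in Differentiated cells (0.74 ± 0.1, adjusted p = 3.3e-06), both under the 2-fold threshold.

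**Figure D2:**
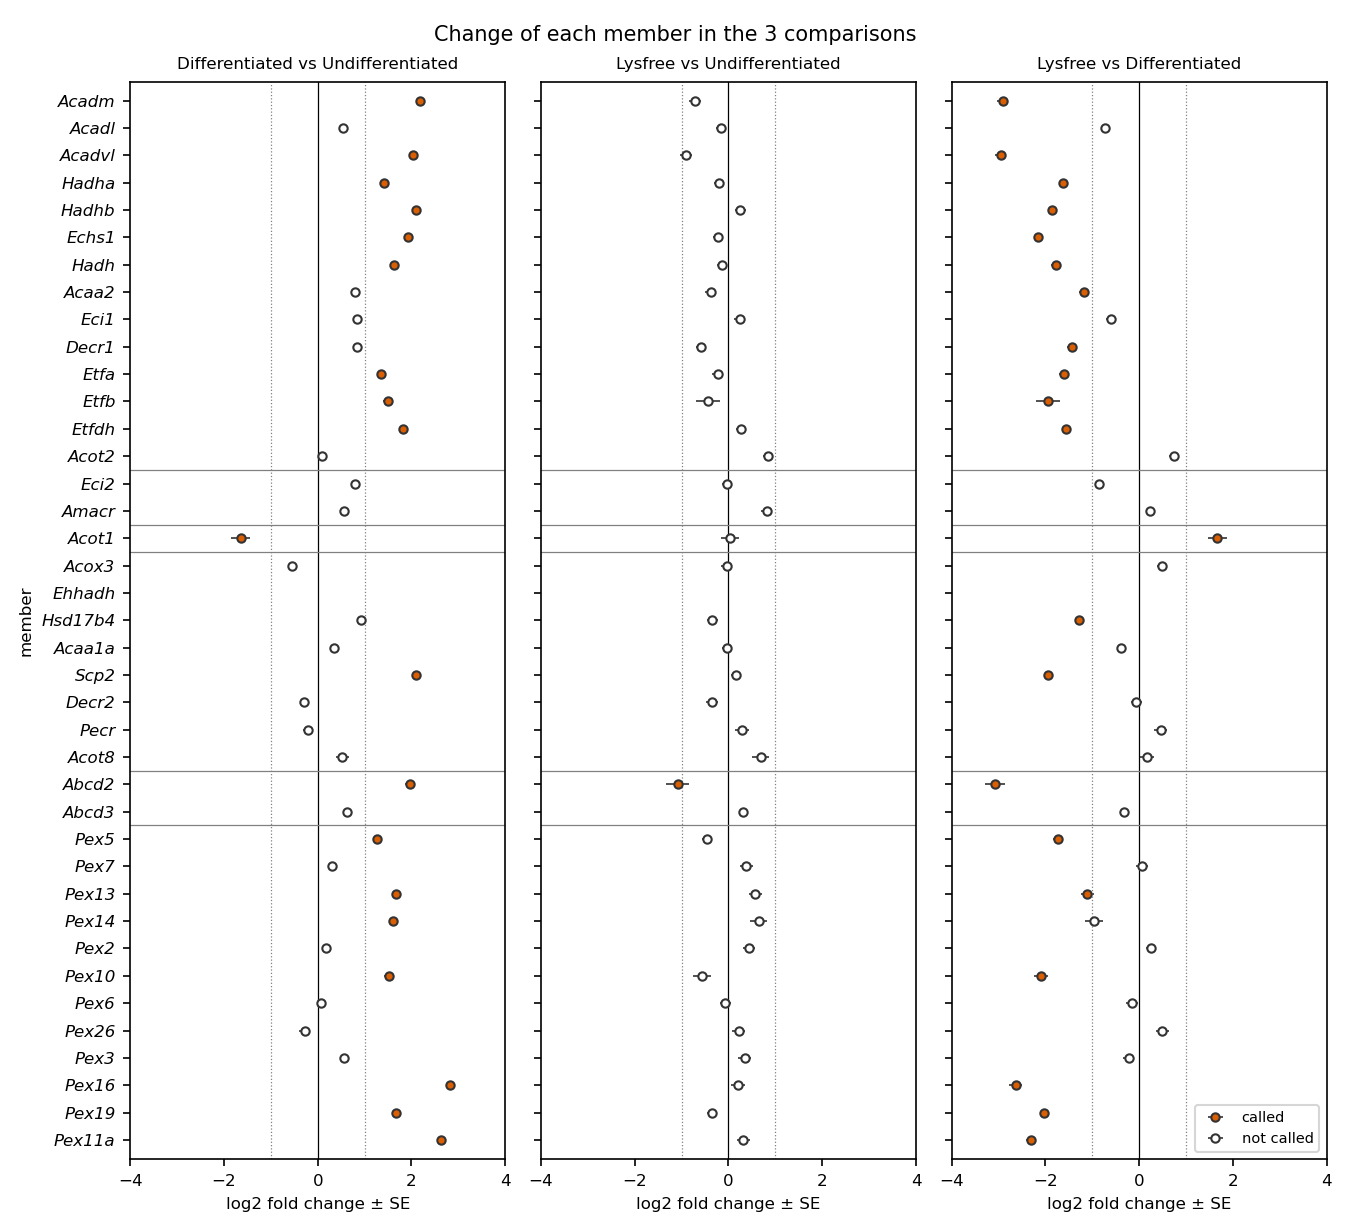
Log2 fold change of each member with its SE (horizontal axis, 1 panel per comparison), filled where called and open where not. Lines part the places of the products, dotted lines mark the 2-fold threshold, and Ehhadh is left without a point because its counts were at the floor. Filled points lie to the right of the threshold with differentiation and to the left in Lysfree vs Differentiated, apart from Acot1, and only Abcd2 is filled in Lysfree vs Undifferentiated.

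The cytosolic counterpart of Acot2, Acot1, was the single member called against the direction of the rest. Acot1 was measured at 1.58, 1.77 and 1.66 FPKM in Undifferentiated, at 0.511, 0.548 and 0.569 in Differentiated and at 1.87, 1.54 and 1.58 in Lysfree libraries. All Differentiated libraries were below all others, and Undifferentiated and Lysfree libraries overlapped. Acot1 was 3.13-fold lower in Differentiated than in Undifferentiated cells (-1.64 ± 0.2, adjusted p = 2.8e-15) and 3.19-fold higher in Lysfree than in Differentiated cells (1.67 ± 0.21, adjusted p = 9e-07). Both calls were lost with limma on log2(FPKM + 1), a scale that shrinks changes of low genes, where the values were -0.79 and 0.79. The coding sequences of Acot1 and Acot2, which lie 15616 bases apart on chromosome 12, were identical at 95.2% of 1239 aligned bases, so reads could be shared between them and the low values of Acot1 are uncertain.

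The peroxisomal enzymes moved less evenly. Scp2, which encodes the thiolase for branched chains and bile acid intermediates and a sterol carrier protein, was measured at 34.1, 37.4 and 36.7 FPKM in Undifferentiated, at 160.0, 154 and 156 in Differentiated and at 43.4, 36.5 and 37.6 in Lysfree libraries. Undifferentiated and Lysfree libraries overlapped, and Differentiated libraries had the highest values of any member. Scp2 rose 4.26-fold (2.09 ± 0.05, adjusted p = 1.3e-321) and fell 3.83-fold in Lysfree compared with Differentiated (-1.94 ± 0.09, adjusted p = 2e-13). Of the 8 enzymes it was the 1 that rose with differentiation, and it and Hsd17b4 were the 2 that fell in Lysfree compared with Differentiated cells. The medians of the 8 were 0.43 and -0.22, and 0.34 and -0.06 without Ehhadh.

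The 2 bifunctional enzymes, each of which performs the hydration and the second dehydrogenation, were unequal in level. Hsd17b4, the D-bifunctional protein, stood at 20.3 ± 0.66, 39.3 ± 1.7 and 15.5 ± 0.779 FPKM, a 1.90-fold difference with differentiation (adjusted p = 9.4e-51, under the fold threshold) and a 2.42-fold fall in Lysfree compared with Differentiated (adjusted p = 3.5e-10). Ehhadh, the L-bifunctional protein, had 0, 0 and 1 counts in Undifferentiated, 6, 2 and 1 in Differentiated and 2, 0 and 2 in Lysfree libraries. Ehhadh was thus at or near the floor of 3 counts throughout, and no fold is given. Acaa1a, the main straight-chain thiolase, had 28.3 ± 0.852, 36.6 ± 0.258 and 26.9 ± 1.76 FPKM and was not called. Acox3, an oxidase for branched chains, was 1.45-fold lower with differentiation, at 2.64 ± 0.0739 against 3.76 ± 0.17 FPKM (adjusted p = 9.5e-11), and not called. Decr2 and Pecr, which handle double bonds, differed by 1.23-fold (adjusted p = 0.00088) and 1.15-fold (adjusted p = 0.13) with differentiation, both lower in Differentiated cells. Acot8, the peroxisomal thioesterase, was 1.43-fold higher in Differentiated and 1.61-fold higher in Lysfree than in Undifferentiated cells (adjusted p = 0.00033 and 0.0017), neither of them called.

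Of the enzymes found in both organelles, Eci2, an isomerase, was 1.74-fold higher with differentiation and 1.81-fold lower in Lysfree than in Differentiated cells (adjusted p = 6e-40 and 8.5e-08), under the fold threshold. Amacr, the racemase that prepares branched chains for oxidation, had 10.8, 11.7 and 9.56 FPKM in Undifferentiated, 16.3, 15.9 and 16.4 in Differentiated and 17.9, 18.8 and 18.2 in Lysfree libraries. Both media gave levels above the Undifferentiated range, by 1.48-fold in Differentiated (adjusted p = 1.7e-11) and 1.76-fold in Lysfree cells (adjusted p = 8.2e-07).

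Acyl-CoA enters the peroxisome through the ABC transporters of family D. Abcd2 was measured at 1.27, 1.1 and 1.01 FPKM in Undifferentiated, at 4.32, 4.37 and 4.91 in Differentiated and at 0.813, 0.344 and 0.399 in Lysfree libraries. The groups did not overlap, and Lysfree libraries were the lowest. Abcd2 rose 3.93-fold with differentiation (1.97 ± 0.11, adjusted p = 4.7e-68). Its 8.42-fold fall in Lysfree compared with Differentiated (-3.07 ± 0.22, adjusted p = 1.7e-10) was the largest of any member, and was -3.56 without Lysfree 1. Abcd2 was also the single member called in Lysfree compared with Undifferentiated cells, 2.12-fold lower (-1.08 ± 0.25, adjusted p = 0.00053), and -1.58 without Lysfree 1. That call was lost, with values of -0.86 to -0.99, when Lysfree 2, Lysfree 3 or Undifferentiated 1 was left out, and also with limma on log2(FPKM + 1), at -0.50. Abcd3, at 11.7, 11.5 and 11.1, then 17.6, 18.3 and 18.2, then 15.1, 13.5 and 12.9 FPKM, was the more abundant transporter in every library. The Abcd3 groups did not overlap, with Lysfree in the middle: 1.55-fold higher with differentiation (0.63 ± 0.06, adjusted p = 7.1e-24), 1.25-fold lower in Lysfree than in Differentiated (-0.32 ± 0.09, adjusted p = 0.0079) and 1.25-fold higher in Lysfree than in Undifferentiated cells (0.32 ± 0.1, adjusted p = 0.014), none of them called.

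**Figure D3:**
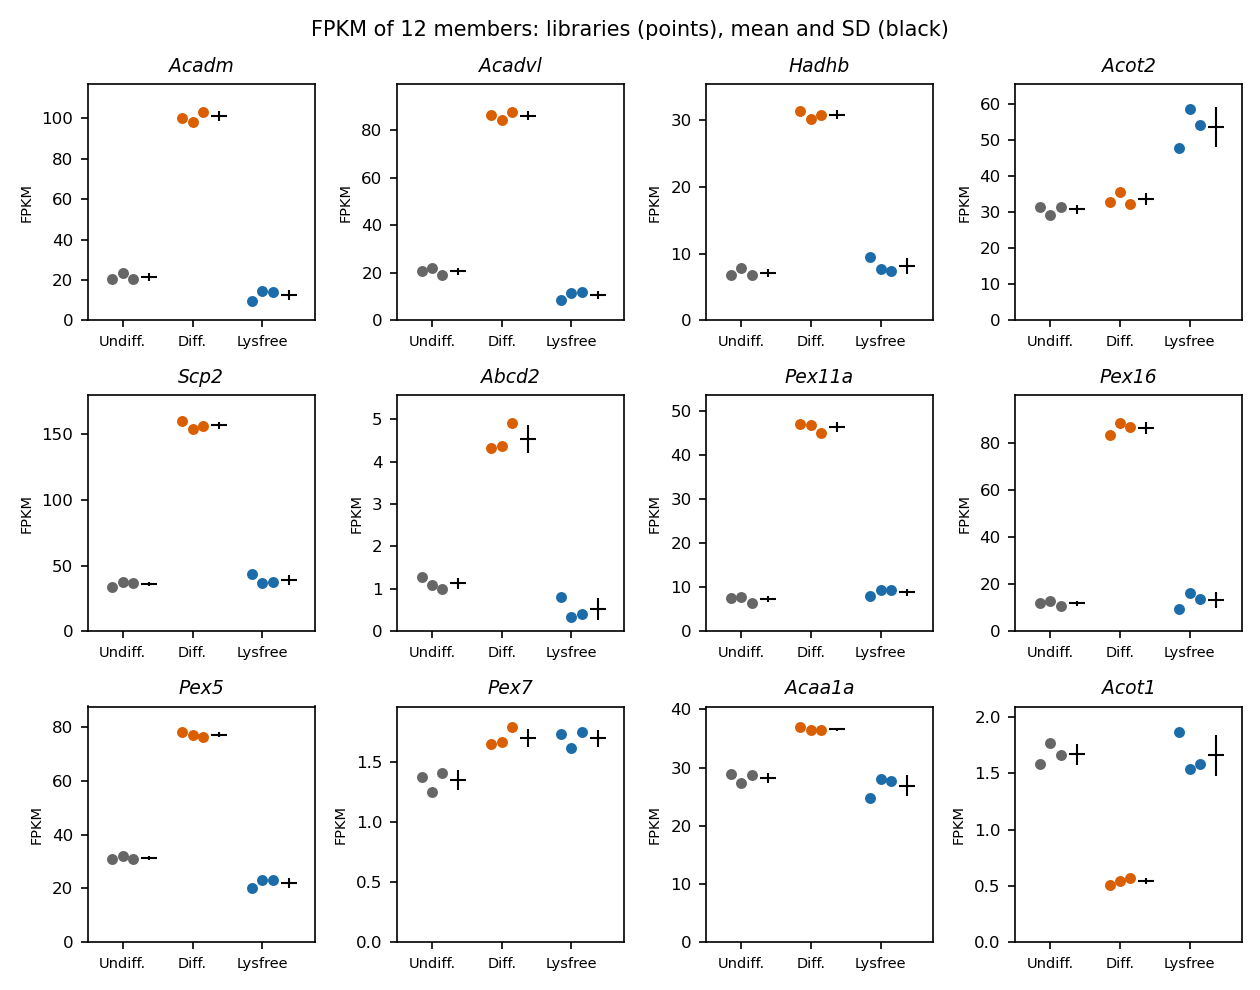
FPKM (vertical axis, from 0) of 12 members in each library (points) with the mean and SD of each group (black). The Differentiated points lie above the rest for Acadm, Acadvl, Hadhb, Scp2, Abcd2, Pex11a, Pex16 and Pex5 and below them for Acot1, and the Lysfree points are highest for Acot2.

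Of the 12 peroxins, 7 rose with differentiation and 6 fell in Lysfree compared with Differentiated cells, with medians of 1.39 and -1.04 on the log2 scale. The largest changes were in Pex16 and Pex11a. Pex16, a receptor for membrane proteins in early peroxisome formation (chromosome 2, 92374676 to 92381217, plus strand), was measured at 12.2, 12.7 and 10.7 FPKM in Undifferentiated, at 83.2, 88.3 and 86.4 in Differentiated and at 9.55, 16.4 and 13.7 in Lysfree libraries. Lysfree libraries spread around the Undifferentiated range, with Lysfree 1 lowest and Lysfree 2 highest. Pex16 rose 7.07-fold (2.82 ± 0.07, adjusted p again below what could be returned), more than any other member with counts above the floor, and fell 6.21-fold in Lysfree compared with Differentiated (-2.63 ± 0.14, adjusted p = 2.6e-12, and -2.47 without Lysfree 1). Large2, on the opposite strand, overlaps 7.2% of its exonic length. Pex11a, which elongates peroxisomes before division, was measured at 7.68, 7.82 and 6.57, then 47.2, 47.0 and 45.2, then 8.01, 9.48 and 9.3 FPKM. Its Lysfree libraries were all slightly above the Undifferentiated ones (1.25-fold, adjusted p = 0.052). Pex11a rose 6.17-fold (2.62 ± 0.07, adjusted p = 1.3e-315) and fell 4.97-fold in Lysfree compared with Differentiated (-2.31 ± 0.1, adjusted p = 1.1e-13). Pex19, the chaperone that carries membrane proteins to the peroxisome, rose 3.17-fold and fell 4.09-fold, and Pex3, its docking partner, was not called in any comparison.

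The receptors of the 2 import signals differed in level and change. Pex5, which reads the C-terminal tripeptide shown above, was measured at 30.9, 32.2 and 31.1 FPKM in Undifferentiated, at 78.1, 76.9 and 76.2 in Differentiated and at 20, 23.0 and 23.2 in Lysfree libraries. The 3 groups were separate, with Lysfree lowest. Pex5 rose 2.41-fold (1.27 ± 0.05, adjusted p = 8.6e-116), fell 3.34-fold in Lysfree compared with Differentiated (-1.74 ± 0.09, adjusted p = 2e-12) and was 1.38-fold lower in Lysfree than in Undifferentiated cells (-0.46 ± 0.1, adjusted p = 0.00039, not called). Pex7, which reads the N-terminal signal, was measured at 1.38, 1.25 and 1.41, then 1.65, 1.67 and 1.79, then 1.73, 1.62 and 1.75 FPKM. Its Differentiated and Lysfree libraries overlapped (log2 fold change 0.06 ± 0.12, adjusted p = 0.71), and both were above the Undifferentiated ones, by 0.31 ± 0.1 (adjusted p = 0.0051) and 0.38 ± 0.14 (adjusted p = 0.026). Pex7 was called in no comparison, and whether Pex5 and Pex7 changed by different amounts was not tested.

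The docking partners Pex13 and Pex14 rose 3.18-fold and 3.05-fold with differentiation. Pex13 fell 2.16-fold in Lysfree compared with Differentiated (-1.11 ± 0.14, adjusted p = 1.7e-06), with Lysfree 1 at 13.7 FPKM against 7.85 and 8.71 in Lysfree 2 and 3. The call of Pex13 was kept without Lysfree 1 (-1.41) and lost without Lysfree 2 (-0.96). Pex14 was 1.95-fold lower in the same comparison (-0.97 ± 0.19, adjusted p = 0.00023), just under the fold threshold, with Lysfree 1 at 3.91 FPKM against 8.28 and 8.86. Without Lysfree 1 the Pex14 value was -0.70, and without Lysfree 2 or 3 it was -1.10 or -1.17 and was called. An antisense gene, Gm17029, overlaps 28.3% of the exonic length of Pex14. Pex10, a ubiquitin ligase subunit that marks the receptor for export, rose 2.87-fold and fell 4.25-fold, whereas its partner Pex2 was 1.13-fold higher with differentiation (adjusted p = 0.066) and not called. Pex6, the ATPase that extracts the receptor, and Pex26, its anchor, were called in no comparison.

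Lysfree and Undifferentiated cells were close in most members, but not equal. By adjusted p alone 9 members were higher and 10 lower in Lysfree, against 18% and 17.1% of all genes, and all but Abcd2 were within 2-fold. Without Lysfree 1 these counts were 13 and 15, and the shares of all genes by adjusted p alone were not taken for that fit. The lower members included Acadvl (1.88-fold, adjusted p = 3.4e-07), Acadm (1.63-fold, log2 fold change -0.71, or -0.58 without Lysfree 1, adjusted p = 1.7e-05), Decr1 (log2 fold change -0.59, adjusted p = 5.8e-05), Pex10 (1.47-fold, adjusted p = 0.021) and Pex19 (1.28-fold, adjusted p = 0.0056). The higher members included Acot2, Amacr, Acot8 and Pex2 (1.36-fold, adjusted p = 0.0028). Pex14 was higher by 0.65 on the log2 scale (adjusted p = 0.0029), and by 0.91 without Lysfree 1, which lay below every Undifferentiated library. Of the 14 mitochondrial members 4 were lower and 1 higher by adjusted p alone, and of the 22 peroxisomal members 6 were lower and 7 higher. The medians were -0.21 and 0.21 on the log2 scale, beside -0.02 for all genes.

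Set side by side, the 2 organelles were close in summed level per length. The 14 mitochondrial members summed to 368 ± 17.8 FPKM in Undifferentiated, 866 ± 13.1 in Differentiated and 331 ± 12.8 in Lysfree cells (SD, n = 3 in each group). The 22 peroxisomal members summed to 267 ± 7.65, 667 ± 3.58 and 264 ± 8.25. The ratio of these sums was 1.38 ± 0.0522, 1.30 ± 0.019 and 1.26 ± 0.0101. As summed read counts, not scaled to gene length, the same ratio was 1.04 ± 0.03 in Undifferentiated, 1.2 ± 0.0119 in Differentiated and 0.927 ± 0.00671 in Lysfree cells. With differentiation the 2 ratios thus moved in opposite directions, lower by FPKM and higher by counts, and both were lower in Lysfree than in either other group. Every Lysfree library (1.24 to 1.26) had a lower FPKM ratio than every Undifferentiated library (1.32 to 1.42), and by counts the 3 groups did not overlap, but 3 libraries against 3 cannot reach an exact permutation p below 0.1. Within the 39 members the organelles differed in how the change was spread. Of the mitochondrial sum's gain of 498 FPKM with differentiation, the 5 largest contributors (Etfa, Acadm, Acadvl, Hadh and Acadl) gave 62.0%. Of the peroxisomal gain of 399 FPKM, Scp2, Pex16, Pex19, Pex5 and Pex11a gave 82.3%. By median log2 fold change the mitochondrial members stood at 1.46 and -1.61 and the peroxisomal members at 0.78 and -0.67 (0.63 and -0.38 without Ehhadh), with 9 of 14 and 9 of 22 rising and 11 of 14 and 9 of 22 falling. All 39 members together took 0.219% of counts in Undifferentiated, 0.523% in Differentiated and 0.219% in Lysfree cells.

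**Figure D4:**
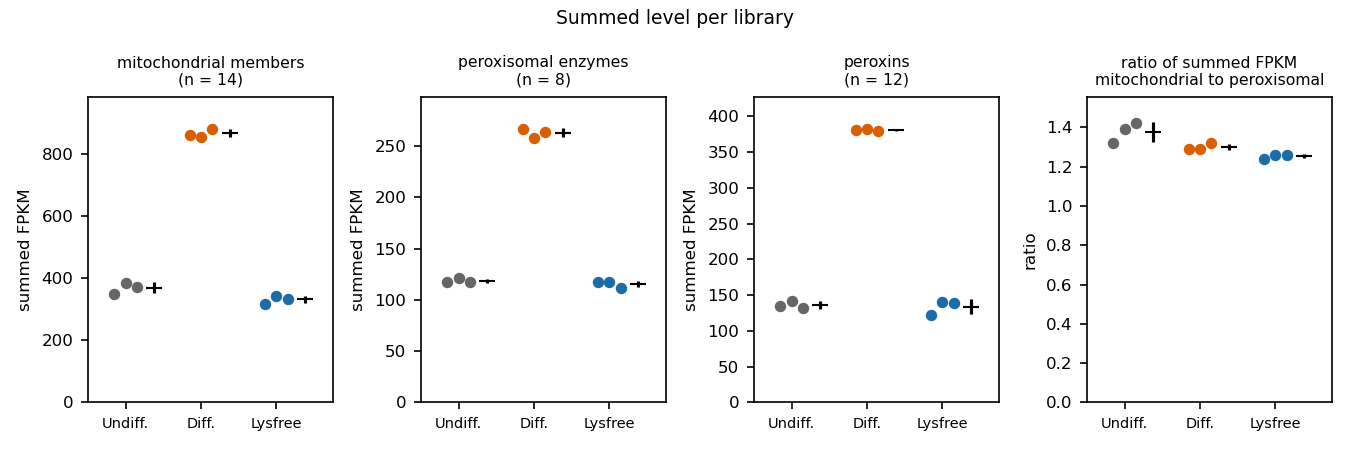
Summed FPKM of the 14 mitochondrial members, the 8 peroxisomal enzymes and the 12 peroxins, and the ratio of mitochondrial to all 22 peroxisomal members, in each library (points) with the mean and SD of each group (black), axes from 0. The 3 sums are highest in Differentiated libraries and near each other in Undifferentiated and Lysfree ones, and the FPKM ratio lies between 1.24 and 1.42.

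Other genes of the pathways, which the list of 39 leaves out, gave the following counts. Of 20 other mitochondrial β-oxidation and acyl-CoA genes, 7 rose and 1 fell with differentiation, 1 rose and 8 fell in Lysfree compared with Differentiated, and 4 rose and 3 fell in Lysfree compared with Undifferentiated. Of 31 other peroxisomal enzyme genes tested, 12 rose and 2 fell with differentiation, of 30 tested 2 rose and 11 fell in Lysfree compared with Differentiated, and of 29 tested 2 rose and 3 fell in Lysfree compared with Undifferentiated. Of 18 other genes of the peroxisomal membrane and biogenesis, 5 rose and 2 fell with differentiation, 5 fell in Lysfree compared with Differentiated, and 2 fell in Lysfree compared with Undifferentiated. The median log2 fold changes of these lists, in this order, were 0.99, 0.86 and 0.27 with differentiation. In Lysfree compared with Differentiated they were -0.78, -0.73 and -0.12. The other mitochondrial and other peroxisomal enzyme lists were thus closer to each other than the mitochondrial and peroxisomal members of the 39. Of all genes tested, 21.8% were called with differentiation, 18.7% in Lysfree compared with Differentiated and 14.3% in Lysfree compared with Undifferentiated. In both comparisons with Differentiated cells, each of these lists had a larger share called than all genes. In Lysfree compared with Undifferentiated the other peroxisomal lists were near the rate of all genes, at 17.2% and 11.1%. The other mitochondrial list was above that rate. Whether these shares differ was not tested. Acaa1b, a second peroxisomal thiolase gene, had the largest rise, from 0.975 ± 0.547 to 24.6 ± 1.55 FPKM (4.57 ± 0.12, adjusted p = 2.5e-296), and the largest fall in Lysfree compared with Differentiated (-5.40 ± 0.17, adjusted p = 4.7e-16). Its coding sequence matched that of Acaa1a at 96.5% of 1275 bases, so the counts of both are uncertain. Acox2, the oxidase of bile acid intermediates, had 5, 6 and 4 counts in Undifferentiated, 65, 69 and 39 in Differentiated and 23, 43 and 39 in Lysfree libraries. Acox2 rose in both media, by 3.70 ± 0.36 (adjusted p = 2.3e-23) and 2.9 ± 0.43 (adjusted p = 1.3e-06). Ephx2, an epoxide hydrolase, was at 107 ± 0.79 FPKM in Differentiated and 10.1 ± 0.946 in Lysfree cells (-3.35 ± 0.1, adjusted p = 2.4e-16), and Ddo, D-aspartate oxidase, had 33, 28 and 39 counts against 6, 3 and 2, called lower in Lysfree (adjusted p = 5e-06) with counts near the floor and no fold given. Acot11, a thioesterase, had 9, 12 and 6 counts in Undifferentiated and at most 2 in any other library, and Pipox, pipecolic acid oxidase, had 10, 8 and 16 in Undifferentiated and 1, 1 and 2 in Lysfree libraries. Both were called lower in Lysfree (adjusted p = 0.0066 and 0.0037), at levels too low for a fold.

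Promoter sequence, the 250 bases before the start in RefSeq on GRCm38.p6, was matched for 32 of the 39 members. The hexamer AGGTCA, the core of the elements bound by PPARs and other nuclear receptors, was searched on both strands (AGGTCA or TGACCT) and was present in 4 of the 32 (Acadm, Acadvl, Echs1 and Scp2), or 12.5%, and in 14.5% of protein-coding genes and 15.8% of all genes. GGGCGG, the GC box, was present in 21 of the 32, or 65.6%, against 47.6% of protein-coding genes. CCAAT was present in 14 (43.8% against 39.3%) and TATAAA in 3 (9.38% against 13.3%), on either strand. The windows of 4 called members are shown 5′ to 3′ on the gene's strand, with AGGTCA and GGGCGG or their reverse complements in capitals: 3 that hold the hexamer, and Pex16, which had the largest rise and does not.
Acadm (chr3:153944644-153944893, minus strand): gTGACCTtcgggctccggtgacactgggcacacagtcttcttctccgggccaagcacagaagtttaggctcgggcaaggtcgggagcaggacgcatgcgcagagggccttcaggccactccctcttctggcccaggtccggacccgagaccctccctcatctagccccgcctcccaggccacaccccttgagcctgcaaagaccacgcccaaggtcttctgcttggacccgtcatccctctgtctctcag
Acadvl (chr11:70015429-70015678, minus strand): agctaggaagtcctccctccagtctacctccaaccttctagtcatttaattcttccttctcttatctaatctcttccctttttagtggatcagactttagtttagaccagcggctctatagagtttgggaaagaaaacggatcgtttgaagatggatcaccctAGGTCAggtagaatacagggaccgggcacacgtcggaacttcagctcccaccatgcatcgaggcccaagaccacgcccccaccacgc
Scp2 (chr4:108118548-108118797, minus strand): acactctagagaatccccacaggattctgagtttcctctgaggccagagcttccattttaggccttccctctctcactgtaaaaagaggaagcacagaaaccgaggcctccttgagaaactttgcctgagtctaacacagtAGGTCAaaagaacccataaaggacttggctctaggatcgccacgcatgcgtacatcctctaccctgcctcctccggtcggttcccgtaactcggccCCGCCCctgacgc
Pex16 (chr2:92374426-92374675, plus strand): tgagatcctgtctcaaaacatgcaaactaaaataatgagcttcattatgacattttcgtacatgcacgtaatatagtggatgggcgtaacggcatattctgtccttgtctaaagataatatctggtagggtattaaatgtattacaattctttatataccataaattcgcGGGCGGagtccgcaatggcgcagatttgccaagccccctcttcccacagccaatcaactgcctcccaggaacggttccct
A match is a description of these windows, and no match says only that the letters are not in them. Pex16 has a second start in RefSeq, whose window held neither motif, and the window of Scp2 lies inside the span the deposited table gives that gene, before a RefSeq start within it. Head-to-head neighbours with starts within 250 bases were found for Hadha and Hadhb, for Pex11a (Wdr93, 32 bases), Pecr (Tmem169, 55 bases), Pex16 (Large2, 193 bases) and Acot8 (Zswim3, 216 bases).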

How the data were processed

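The submitters' processing notes name HISAT2 2.0.5, featureCounts 1.5.0-p3 and mm10. The authors deposited read counts per gene, not normalized, and FPKM, normalized for gene length and library total. The strand setting of the counting is not given in the sources used here. Each column name matched 1 sample label.

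Counts were tested with edgeR 4.0.16 in R 4.3.3 (TMM, glmQLFit, glmQLFTest) on the 6 libraries of a comparison, keeping genes counted in at least 1 of them. Benjamini-Hochberg adjustment ran over all genes tested. The SE is the log2 fold change divided by the square root of F, in size. In Differentiated vs Undifferentiated the fit found no variation of dispersion beyond its trend, which makes very small p. FPKM gave levels, with SD over 3 libraries. The script was tested on simulated data. Alternatives were DESeq2 1.42.0, other scalings, filters and thresholds, limma 3.58.1 on log2(FPKM + 1) and log2(FPKM + 0.1), a replicate block and leaving out each library.

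Values in every library are printed for up to 6 of the largest called rises and falls in each comparison (at least 1 FPKM, no overlap), for called members moving against their list, for Abcd2, Abcd3, Pex5 and Pex7, with 3 genes of the other lists per comparison. Acot2 and Amacr were added after values were seen. Members, lists and tests were chosen with earlier results of these data known. Depth floors cover counting error only.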

Additional observations from a re-analysis of the deposited data

How the results depend on the processing

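No called result changed direction under any alternative. With differentiation, 18 to 24 members were called with DESeq2, other scalings, filters, the single fit over all 9 libraries, limma and the test against a 1.5-fold change, and 34 by adjusted p alone, of which 18 were peroxisomal against 9. In Lysfree vs Undifferentiated, adjusted p alone called 19 members (5 mitochondrial, 13 peroxisomal) and the 1.5-fold test 4 (2 mitochondrial) in place of 1. Over all 23994 genes tested there, these settings called 8428 and 3637, in place of 3426. In Lysfree vs Differentiated, adjusted p alone called 15 peroxisomal members against 9. Adjusted p alone and without Lysfree 1, chosen after seeing the data, gave 28 in Lysfree vs Undifferentiated and 34 in Lysfree vs Differentiated. Shares of all genes were not taken at that setting, so its counts cannot be set against them. In leave-one-out fits the number of members called was 19 throughout with differentiation, 0 to 1 in Lysfree vs Undifferentiated and 21 to 22 in Lysfree vs Differentiated. Without Lysfree 3 the 1 member called in Lysfree vs Undifferentiated was Acadvl, in place of Abcd2. Deviations of same-numbered libraries correlated at -0.0842 to 0.115, so the numbers were not taken as pairing; with the replicate block the counts were 19, 1 and 22, Pex14 being the added call. In Lysfree vs Undifferentiated the calls of Abcd2 (0.051 as adjusted p with limma on log2(FPKM + 0.1)) and Acadvl depend on the setting. So do those of Pex13, Pex14 and Acot1 in Lysfree vs Differentiated. The count over all genes moved with the threshold and the scale, from 5329 to 11260 by adjusted p alone and 2726 with limma on log2(FPKM + 1) with differentiation, from 3426 to 8428 and 1474 in Lysfree vs Undifferentiated and from 4507 to 9280 and 2198 in Lysfree vs Differentiated. A filter of at least 10 counts in every library gave 3488, 2244 and 2891. With filters on low counts, which also leave out Ehhadh, the peroxisomal medians were 0.62 with differentiation and -0.42 or -0.44 in Lysfree vs Differentiated. Depth limits Ehhadh, Acot11 and Pipox, and 3 libraries in each group limit every comparison.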
